A study of Mus musculus with 33 samples.

Results

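Clasp1, Slain2, Nav3, Macf1, Mark2 and Fign encode proteins that bind, regulate or cut microtubules. They were taken as every event listed under these symbols in the 20 deposited splicing tables, which gave 6 of the 376 gene IDs and 12 of the 549 events. These events fall on 7 exons, with 10 skipped-exon events and 2 events of mutually exclusive exons. No alternative splice-site or retained-intron event of these genes is in the tables. The genes were chosen from the inclusion values themselves, so the changes below are a description and carry no test beyond the authors' own.

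The libraries are rRNA-depleted, strand-specific total RNA from FVB mice whose Dmpk gene, affected in myotonic dystrophy, carries a CTG expansion, and from FVB mice without one. The groups compared are 480/480 (2 alleles of 480 repeats) tibialis anterior (TA, a lower-leg muscle) against +/+ TA, 480/480 and +/480 (1 such allele) cultured myotubes against +/+ myotubes, and 480/480 choroid plexus, the tissue that secretes cerebrospinal fluid, against +/+ choroid plexus. Each group has 3 labelled mice (n = 3), but the choroid plexus tables hold 2 values for 480/480 (n = 2) and do not say which library was left out. The labels give mouse numbers, and the same mice of a genotype supplied all 3 sources, so sources are not independent; the labels give no ages. The 170/170 and +/+ myotubes of the C57/BL6 strain, +/480 TA and +/480 choroid plexus were not analysed here.

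Inclusion, given by the authors for each library, is the percentage with the exon among transcripts that join the neighbouring exons listed for the event, and not among all transcripts of the gene. Every listed event had passed the authors' selection (5 or more reads on average, FDR of 0.05 or less, a change of 10 percentage points or more), and "rose" and "fell" are used only for such events. Read counts behind a value are unknown, so no counting interval is given. With so few libraries, an exact permutation test (two-sided) can reach no p under 0.10 for any single event, so none is given. The tables hold no expression levels, so tissue identity could not be checked against markers, and a change within cells and a change in the mix of cells cannot be told apart.

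Microtubules grow and shrink at their plus ends, where a set of tracking proteins gathers around end-binding (EB) proteins. In muscle fibres they form a lattice below the membrane and around the nuclei and help to place the nuclei. Clasp1 stabilises growing plus ends, Slain2 links EB proteins to the polymerase Ckap5, Nav3 belongs to the neuron navigators that track plus ends, and Macf1 is a spectraplakin that crosslinks actin and microtubules. Mark2 is a kinase that releases microtubule-associated proteins from the lattice, and Fign is an ATPase that severs microtubules. In myotonic dystrophy, RNA with expanded CUG repeats sequesters muscleblind-like proteins, which regulate alternative exons.

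The exon sequences are shown because each is the segment gained or lost in these events. They were read from GENCODE M21 transcripts (mm10) and run 5′ to 3′ on the transcribed strand. Capitals mark the 4-base words TGCT and TGCC and their variants CGCT and CGCC, which muscleblind-like proteins are known to bind in RNA; in Fign they mark the start codon. The search covered the transcribed strand of the exon, overlaps included; flanking introns were not searched.
Clasp1 48-base exon: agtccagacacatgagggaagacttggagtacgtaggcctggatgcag
Clasp1 108-base exon: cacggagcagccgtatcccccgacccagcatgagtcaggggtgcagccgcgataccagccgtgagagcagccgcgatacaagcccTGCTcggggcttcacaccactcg
Clasp1 63-base exon: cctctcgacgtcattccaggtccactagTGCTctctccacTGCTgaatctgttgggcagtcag
Slain2 78-base exon: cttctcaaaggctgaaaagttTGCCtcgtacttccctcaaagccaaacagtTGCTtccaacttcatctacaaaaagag
Nav3 42-base exon: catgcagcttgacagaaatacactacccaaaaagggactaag
Macf1 63-base exon: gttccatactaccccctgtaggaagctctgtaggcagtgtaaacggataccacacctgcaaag
Mark2 162-base exon: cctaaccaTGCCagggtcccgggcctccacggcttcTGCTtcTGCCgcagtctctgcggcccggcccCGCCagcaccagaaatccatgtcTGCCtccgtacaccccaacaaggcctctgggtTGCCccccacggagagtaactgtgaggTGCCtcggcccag
Fign 170-base exon, coding bases: ATGatcagtagcaccagtgtttatg

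The first 7 of these exons are wholly coding in GENCODE M21 and their lengths are multiples of 3, so leaving one out keeps the reading frame. Among all wholly coding skipped-exon events listed, the share with such a length is 83.8% (480/480 myotubes), 68.1% (+/480 myotubes) and 60% (480/480 choroid plexus). Mark2 held 7 of the 4-base words, the Clasp1 63-base exon and Slain2 held 2 each, the Clasp1 108-base exon held 1, and the Clasp1 48-base exon, Nav3 and Macf1 held none. Of annotated coding exons of the same length, 89.6% hold at least 1 word at 162 bases and 4.45% hold at least as many as Mark2. These shares are matched for length only and not for base composition, and the Mark2 exon is 66.7% G and C. The share with at least 1 is 64.3% at 78 bases, 74% at 108, 50.5% at 63, 42% at 48 and 38.4% at 42. At least 2, as in Slain2 and the Clasp1 63-base exon, are held by 28.3% at 78 bases and 16.5% at 63. A match to these words is a description of the letters and not a binding site.

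In myotubes the exons of Clasp1, Slain2 and Nav3 fell with either expansion genotype where listed, and the Macf1 exon rose in 480/480. The 480/480 table lists 6 events of these genes, 5 lower and 1 higher, beside 60.9% lower among all its events. Libraries of the 2 genotypes did not overlap at any of the 6, beside 89.7% of all events in that table. The +/480 table lists 4 events, all lower, beside 50% of its events, and none overlapped, beside 80.9%. Since these contrasts chose the genes, nothing is read from these counts. The median size of change was 28.9 points over the 6 events and 21.03 over all 243 events in 480/480 myotubes, and 34.9 over the 4 and 23.8 over all 110 in +/480.

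**Figure D1:**
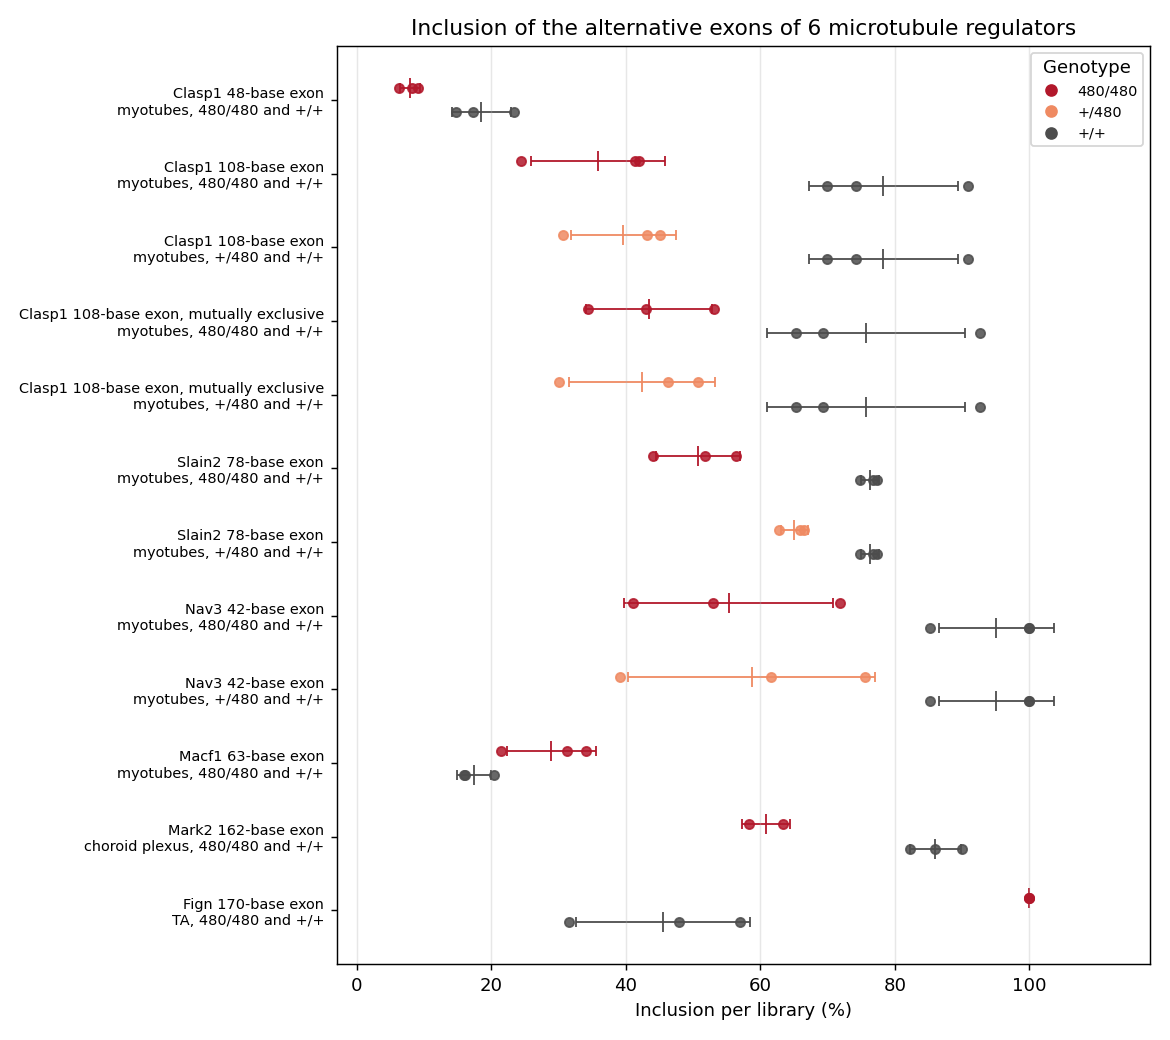
Inclusion of each alternative exon per library (percent, x axis) for the 12 events, with the expansion genotype drawn above +/+ in each pair; points are libraries, ticks are means and bars are SD, which can pass 100%. Groups do not overlap at any of the 12 events, and Fign in 480/480 TA sits at 100% in every library.

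Clasp1 lost inclusion of its 108-base exon (chr1:118531978-118532085, plus strand, 36 codons) in both expansion genotypes. Inclusion was 24.4%, 41.3% and 42.0% in 480/480 myotubes, against 69.9%, 90.8% and 74.2% in +/+ myotubes. The highest 480/480 library was well below the lowest +/+ library. The mean was 35.9% ± 9.97 in 480/480 and 78.3% ± 11 in +/+ (SD, n = 3 each), and it fell by 42.4 points. The authors' deposited table gives an FDR of 0.00391, and the change ranks 16 of 184 skipped exons by size.

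In +/480 myotubes the same exon stood at 45%, 30.7% and 43.2%, against the same +/+ values. It averaged 39.6% ± 7.79 and fell by 38.7 points, with an FDR of 0.0255 in the authors' deposited table. The +/480 and +/+ libraries did not overlap. The change ranks 14 of 69 skipped exons by size.

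Downstream of this exon lies the Clasp1 63-base exon (chr1:118536135-118536197), also of whole codons. The skipped-exon event ends in it, so that event sets transcripts with both exons against those with the 63-base exon alone. A separate event sets the 108-base exon alone against the 63-base exon alone. There the share with the 108-base exon was 34.4%, 53.1% and 43.0% in 480/480 myotubes, against 69.3%, 92.6% and 65.3% in +/+ myotubes. It averaged 43.5% ± 9.36 in 480/480 and 75.7% ± 14.7 in +/+, and fell by 32.2 points. In +/480 it was 50.7%, 30.1% and 46.3%, with a mean of 42.4% ± 10.8, and fell by 33.4 points. The authors' deposited table gives FDR values of 0.00778 for 480/480 and 0.0174 for +/480. The second listed +/+ value is the highest at both events, and the events share the reads of the 108-base exon, so they are not independent. By size this was the largest of the 10 mutually exclusive events in the +/480 table and the second of the 35 in the 480/480 table. Of annotated transcripts that span both neighbouring exons, 3 hold the 108-base exon alone, 1 the 63-base exon alone, 2 both and 11 neither.

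Clasp1 proteins are known to bind EB proteins through a short SxIP motif (serine, any residue, isoleucine, proline). Searched in frame as codons, 1 of the 7 wholly coding exons held such a run: AGCCGTATCCCC, at chr1:118531986-118531997, bases 9 to 20 of the Clasp1 108-base exon. Of 1524 annotated coding exons of 108 bases, 11 (0.722%) hold one. The rest of the Clasp1 coding sequence was not searched. Whether transcripts without this exon still hold such a run is therefore not known here. Binding was not measured in these data.

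The 48-base exon of Clasp1 (chr1:118512175-118512222, 16 codons), further upstream, was a minor form in all libraries. Inclusion was 8.2%, 6.2% and 9.1% in 480/480 myotubes, against 23.4%, 17.3% and 14.8% in +/+ myotubes. All 480/480 libraries were below all +/+ libraries. It averaged 7.83% ± 1.48 in 480/480 and 18.5% ± 4.42 in +/+ and fell by 10.7 points, just past the authors' size threshold of 10 points. The size was under 10 points with group medians (fell by 9.10), without the second-listed 480/480 value (fell by 9.85) and without the first-listed +/+ value (fell by 8.22). The authors' deposited table gives an FDR of 4.55e-04. Of annotated transcripts, 12 join its neighbours directly and 2 include it. The +/480 table lists no event at it, which gives no value for that genotype.

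**Figure D2:**
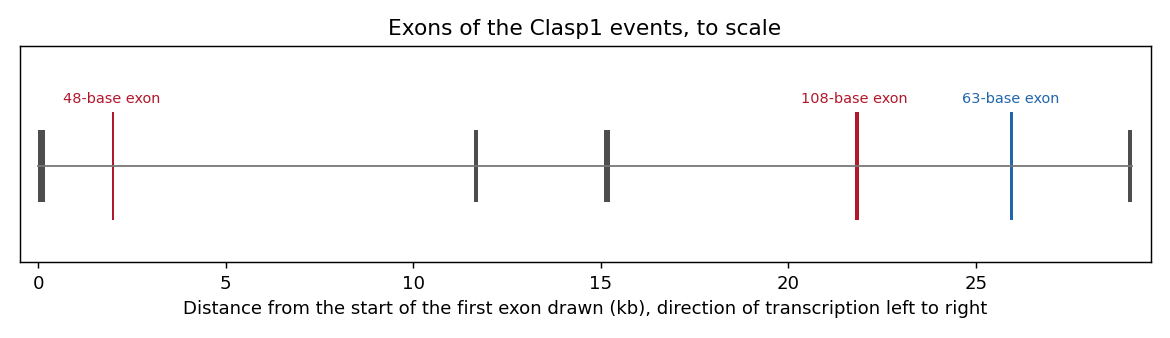
Exons of the Clasp1 events, drawn to scale with the distance in kb from the first exon drawn on the x axis. Red exons are the 48-base and 108-base exons that fell, and grey exons are the neighbours. Blue is the 63-base exon, set against the 108-base exon in the mutually exclusive event, though some annotated transcripts hold both. The 48-base exon lies apart from the other pair, which are neighbours.

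Slain2 lost inclusion of a 78-base exon (chr5:72965804-72965881, plus strand, 26 codons), with a separate range in each myotube genotype. Inclusion was 44.0%, 56.4% and 51.7% in 480/480 myotubes and 62.7%, 66.5% and 65.9% in +/480 myotubes, against 77.4%, 74.8% and 76.8% in +/+ myotubes. The 3 genotypes form 3 ranges with no overlap, and +/+ was the tightest. How often other events listed in both myotube tables do so was not computed, so nothing is read from it. The 480/480 mean was 50.7% ± 6.26, the +/480 mean 65.0% ± 2.04 and the +/+ mean 76.3% ± 1.36 (SD, n = 3 each). The exon fell by 25.6 points in 480/480 and by 11.3 in +/480. The authors' deposited table gives an FDR of 7.23e-10 in 480/480, rank 17 of 184 skipped exons by FDR, and of 0.0402 in +/480, close to the threshold of 0.05. By size the changes rank 64 of 184 in 480/480 and 64 of 69 in +/480. In annotation, 1 transcript joins the neighbouring exons without it and 2 include it.

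Nav3 fell at a 42-base exon (chr10:109760487-109760528, minus strand, 14 codons) that was nearly always included in +/+ myotubes. Inclusion was 41.0%, 71.9% and 52.9% in 480/480 myotubes, against 100%, 85.2% and 100% in +/+ myotubes. The mean was 55.3% ± 15.6 in 480/480 and 95.1% ± 8.54 in +/+, and it fell by 39.8 points. In +/480 myotubes inclusion was 75.5%, 61.6% and 39.1%, with a mean of 58.7% ± 18.4, and fell by 36.3 points. Both expansion groups were spread widely but lay below all +/+ libraries. The authors' deposited table gives FDR values of 0.00108 in 480/480 and 0.0294 in +/480.

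Macf1 was the 1 gene of the 6 whose exon rose in myotubes, at a 63-base exon (chr4:123441603-123441665, minus strand, 21 codons). Inclusion was 34.0%, 21.5% and 31.3% in 480/480 myotubes, against 20.4%, 16.1% and 15.9% in +/+ myotubes. The lowest 480/480 library was 21.5% and the highest +/+ library 20.4%, so the groups were close to touching. The mean was 28.9% ± 6.58 in 480/480 and 17.5% ± 2.54 in +/+, a change of 11.5 points, and of 8.93 points, under the authors' threshold, without the first-listed 480/480 value. The authors' deposited table gives an FDR of 3.25e-04, and the change ranks 170 of 184 by size. No Macf1 event is in the +/480 table. All 7 annotated transcripts with this exon code through it, in a protein of 7354 residues in the longest, and 1 annotated transcript joins the neighbours without it.

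**Figure D3:**
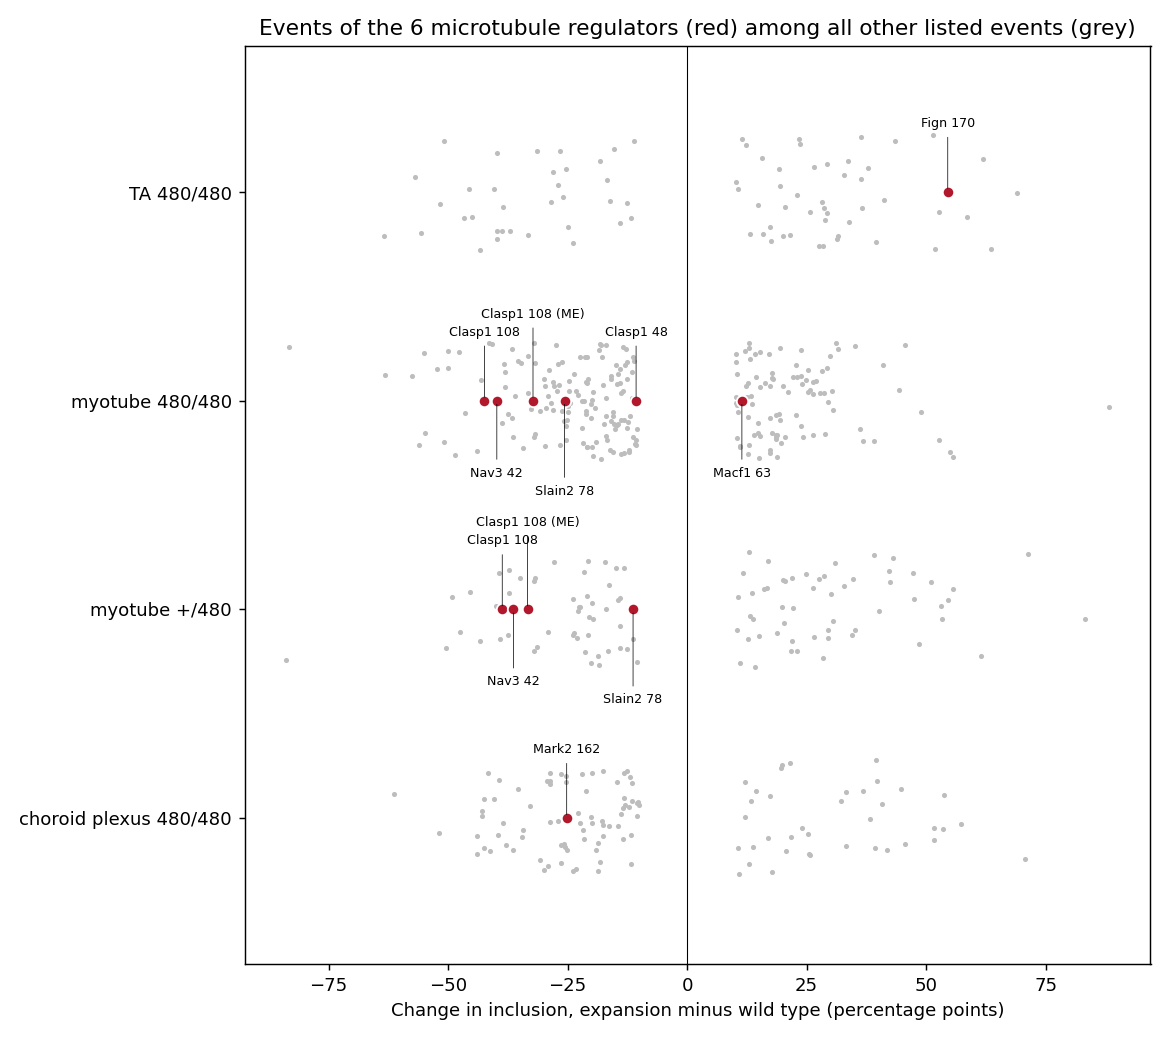
Change in inclusion (expansion minus +/+, percentage points, x axis) of every listed event in the 4 comparisons (rows), with the 6 genes in red, labelled by gene and exon length, and all other events in grey; ME marks mutually exclusive exons. The gap around 0 is the authors' threshold of 10 points, and red points run from -42.4 (Clasp1) to 54.5 (Fign).

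Set directly against each other, 480/480 and +/480 myotubes had separate libraries at Slain2 and overlapping libraries at the other 3 events listed in both tables. At Slain2, 480/480 was lower than +/480 (a difference of -14.3 points). The share of all 48 events in both tables with such separate libraries was not computed. With 3 libraries in each genotype, an exact two-sided permutation test can reach no p under 0.10. An effect of the number of expanded alleles at Slain2 is therefore not shown by this separation. The difference was -3.73 points for the skipped-exon event at the Clasp1 108-base exon, 1.13 for its mutually exclusive event and -3.47 at Nav3. The direction of these 3 depended on single libraries, and the values do not show that the genotypes are alike at Clasp1 or Nav3. Changes against +/+ in the 2 genotypes share their +/+ libraries: the +/+ values were identical at all 48 events found in both myotube tables.

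**Figure D4:**
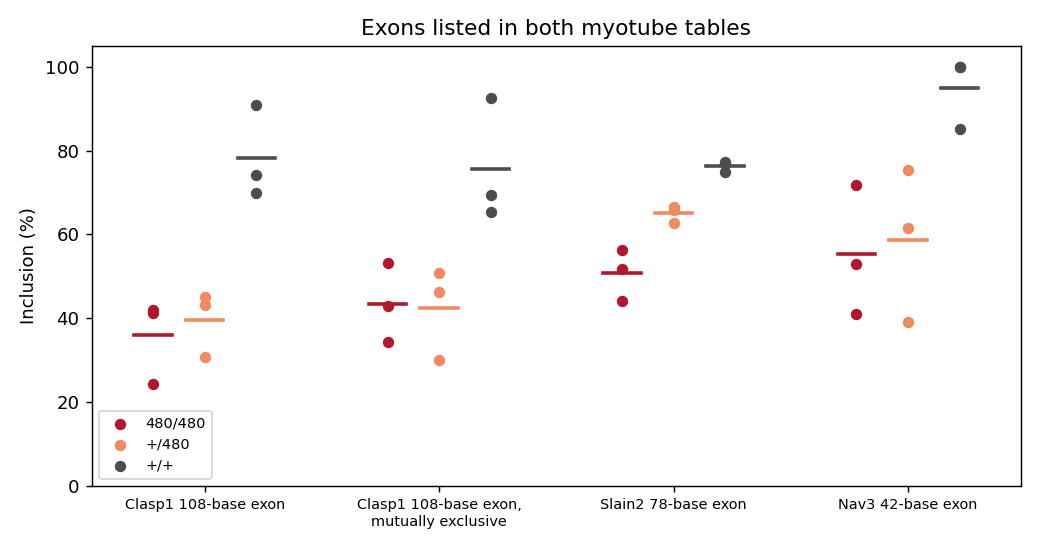
Inclusion (percent, y axis) of the exons listed in both myotube tables, in 480/480, +/480 and +/+ myotubes from left to right; points are libraries and lines are means. At Slain2 the 480/480 libraries lie below the +/480 libraries, while at Clasp1 and Nav3 these groups overlap.

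In choroid plexus the 1 event was in Mark2, which lost inclusion of a 162-base exon (chr19:7281798-7281959, minus strand, 54 codons). Inclusion was 58.3% and 63.4% in 480/480 choroid plexus, against 89.9%, 82.3% and 85.9% in +/+ choroid plexus. The groups did not overlap, as at 80% of the 115 events in that comparison, of which 67% were lower in 480/480. The mean was 60.9% ± 3.61 in 480/480 (SD, n = 2) and 86.0% ± 3.80 in +/+ (SD, n = 3), and it fell by 25.2 points. The authors' deposited table gives an FDR of 0.0136. The size is the median of all events there, 25.2 points, and ranks 36 of 68 skipped exons. Both forms are annotated, with 7 transcripts that include the exon and 6 that skip it.

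In TA the 1 event was in Fign, and it was the second largest of 37 skipped-exon changes there. Inclusion of its 170-base exon (chr2:64096895-64097064, minus strand) was 100% in each 480/480 TA library, against 57.0%, 47.9% and 31.5% in +/+ TA. It averaged 100% ± 0 in 480/480 and 45.5% ± 12.9 in +/+ and rose by 54.5 points, with an FDR of 0.00364 in the authors' deposited table. The groups did not overlap, as at 71.6% of the 81 TA events, of which 42% were lower in 480/480. Only 25 bases of this exon are coding in the 1 annotated protein-coding transcript, and they open the reading frame: the start codon lies in this exon. The rest is 5′ UTR, and 1 annotated transcript, classed as non-coding, joins the neighbouring exons without it. Another annotated transcript holds the exon and its start codon but is classed as nonsense-mediated decay, so inclusion alone does not mark the protein-coding form. The length of the Fign exon is not a multiple of 3. Because the reading frame starts inside it, that length does not tell whether a frame is kept. Of all skipped exons listed in TA, coding or not, 37.8% have a length that is a multiple of 3, and of the wholly coding ones 60%.

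No exon of the 6 genes is listed in more than 1 of the 3 sources. A gene absent from a table had no event past the authors' thresholds, which gives no inclusion value, so differences between sources at these exons were not tested.

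Other microtubule genes came from 7 lists of 217 genes, all found in the reference symbol table. Of the 217, 9 had an event in 480/480 myotubes, where 0.743% of annotated protein-coding genes did. The number was 5 in +/480 myotubes (0.383%), 3 in 480/480 TA (0.296%) and 1 in 480/480 choroid plexus (0.437%). The percentages cover all annotated protein-coding genes, expressed or not. The 6 genes are among those counted and were picked for having events. The lists themselves were chosen with earlier results of these data known, so no enrichment was tested and none is read from these counts. Without the 6 genes the counts were 5, 2, 2 and 0 of 211. By role, 8 of 32 plus-end tracking genes carried 12 events in 480/480 myotubes, of which 9 fell and 3 rose, while 5 carried 6 in +/480, of which 5 fell and 1 rose. Without the 6 genes, 4 of 28 carried 6 events in 480/480 myotubes, of which 4 fell and 2 rose, beside 60.9% lower among all events there. In +/480 myotubes 2 of 28 carried 2, of which 1 fell and 1 rose, beside 50% lower. None of the 34 lattice-binding or 26 tubulin-modifying genes had an event in any table. The remaining lists were nearly empty: 1 of 57 motor genes in 480/480 myotubes and 1 of 30 tubulin and nucleation genes in TA. Among severing and depolymerising genes it was 1 of 20 in TA, and among kinases 1 of 18 in TA and 1 of 18 in choroid plexus. With such low shares over all genes, no difference between roles is read from these counts.

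Of the plus-end genes outside the 6, Phldb1, which like Phldb2 anchors Clasp proteins at the cell cortex, was at 45.5%, 24.1% and 19% in 480/480 myotubes, against 74.7%, 66.2% and 60.3% in +/+ myotubes at a 45-base exon. It fell by 37.5 points, to 29.5% ± 14.1 in 480/480, against 67.1% ± 7.24 in +/+. Tacc2, of a family that partners Ckap5, had 3 events that all fell, and the largest fell by 21.97 points at a 141-base exon, with 48.3% ± 3.83 in 480/480 and 70.3% ± 4.33 in +/+. Clip1, an end-tracking protein that binds EB proteins, rose at a 6-base exon, with 40.7% ± 10.6 in 480/480 and 16.4% ± 4.93 in +/+. Dst, a spectraplakin like Macf1, was at 100% in every 480/480 myotube library, against 74.2%, 100% and 69.8% in +/+ myotubes. Of these 6 events in 480/480 myotubes, the libraries overlapped at the Dst event and not at the other 5, beside 89.7% of all events without overlap.

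In +/480 myotubes Dst was at 100%, 92.4% and 100%, overlapping +/+. The EB gene Mapre3 fell at a 5′ splice-site choice in +/480 myotubes, with 65.0%, 64.6% and 62.2%, against 71.6%, 80.7% and 83.1% in +/+. It fell by 14.5 points, and the libraries did not overlap, as at 80.9% of events there. Dctn4, a dynactin subunit, rose at a 21-base exon in 480/480 myotubes, with 50.6% ± 7.47 against 23.7% ± 5.36 in +/+.

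In TA, Tubgcp5, a subunit of the gamma-tubulin ring complex that nucleates microtubules, rose in intron retention, with 13.8%, 31.4% and 14.9% in 480/480 TA, against 1.0%, 1.2% and 11.1% in +/+ TA. The libraries did not overlap, as at 71.6% of TA events. The kinase Sik2 had 3 events at the same place, all higher in 480/480 with overlapping libraries. Its largest was retention of 93.8% ± 10.7 in 480/480 and 65.3% ± 16.6 in +/+.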

How the data were processed

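The submitters' processing notes name FastQC, the aligner STAR and the build mm10, without versions; the splicing caller and its settings are not given in the sources used. The authors deposited inclusion as a fraction per library, with a p-value and an FDR per event, and a difference score of wild type minus expansion. Per the file headers, events were kept at 5 or more reads on average, an FDR of 0.05 or less and a change of 10 points or more.

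Fractions were turned into percentages, and changes computed as expansion minus wild type from group means; these lay within 0.05 points of the deposited differences. The values listed for a group are not tied to replicate numbers. On the plus strand, mutually exclusive values moved with skipped-exon events at the first exon in 16 of 16 cases. The genes and the 7 lists were chosen with earlier results of these data known. All events of the 6 genes are described, and each list gene with an event is named with its largest event. The planned exact permutation test of 480/480 against +/480 myotubes cannot go below 0.10 and used events of chosen genes, so its p-values are not given. Exon annotation and sequence came from GENCODE M21. Introns were not searched, since no genome sequence was used here. Alternatives were leaving out each library, group medians, an FDR of 0.01 or less, changes of 20 points or more, distinct exons and skipped exons only; inclusion from summed counts was not run, because the tables used hold no counts. Python 3.11.15 and matplotlib 3.10.9 were used.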

Additional observations from a re-analysis of the deposited data

How the results depend on the processing

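All 71 changes against +/+ recomputed without 1 library kept their direction, as did all 12 with group medians. Both counts were fixed in advance, since the groups overlapped at none of the 12 events. They give no support to the changes. The Clasp1 48-base exon came below the authors' 10 points with medians (-9.10) and without either of 2 libraries (-9.85 and -8.22), and Macf1 without 1 (8.93). Changes without 1 library ranged from -12.5 to -8.22 points for the Clasp1 48-base exon, from -46.6 to -36.2 and from -42.9 to -32.4 for the Clasp1 108-base exon in 480/480 and +/480, and from -37.5 to -23.8 and from -38.6 to -24.9 for its mutually exclusive event. They ranged from -28.5 to -22.3 and from -12.1 to -10.1 for Slain2, from -48.1 to -32.7 and from -44.7 to -26.5 for Nav3 in 480/480 and +/480, from 8.93 to 15.2 for Macf1, from -27.7 to -22.6 for Mark2 and from 47.6 to 60.3 for Fign.

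Between 480/480 and +/480 myotubes, differences without 1 library ranged from -17.2 to -11.0 points for Slain2. They reversed for the others, and the cause was not tested: from -8.20 to 2.02 for the Clasp1 skipped exon, from -5.00 to 5.68 for its mutually exclusive event and from -13.3 to 4.92 for Nav3. The first-listed 480/480 value reversed the Clasp1 skipped exon (2.02) and Nav3 (3.67), and the first-listed +/480 value Nav3 (4.92). The second-listed 480/480 value reversed the mutually exclusive event (-3.67), as did the second-listed +/480 value (-5.00) and group medians (-3.30).

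At an FDR of 0.01 or less, 0 of the events of these genes, 0 without overlap and 0 listed microtubule genes remained in +/480 myotubes, and likewise 0, 0 and 0 in choroid plexus. At 20 points or more, listed genes in +/480 myotubes numbered 2. Other counts stayed within 1.5 times. No paired analysis was possible because the library values carry no replicate number, and equal numbers mark different mice in each genotype. Depth per event is unknown.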
